A study of Mus musculus with 8 samples.

Results

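The RNA levels of 10 mouse genes for antioxidant enzymes were followed through oocyte maturation, namely the 6 peroxiredoxins (Prdx1, Prdx2, Prdx3, Prdx4, Prdx5 and Prdx6), the superoxide dismutases Sod1 and Sod2, and the glutathione peroxidases Gpx1 and Gpx4. They were taken by gene symbol, by a rule that uses no measured value, from the 15962 genes listed in all libraries, and all 10 were among the 13968 genes that were tested. The list itself was chosen with earlier results of these data known. Polyadenylated RNA had been measured in 8 libraries, 2 from each of 4 groups, and each library held 15 oocytes. All oocytes came from 6-week-old female ICR (Crl:CD1) mice primed with pregnant mare's serum gonadotropin, and no genetic change is named for them. The GV group held fully grown oocytes arrested with an intact germinal vesicle, and the MII group held oocytes at metaphase of the second meiotic division, matured in M16 medium; the labels name WT as the treatment of both. Btg4wt and Btg4tm were MII oocytes that had been microinjected, as fully grown oocytes, with capped RNA for Myc-tagged BTG4, either wild type or with 3 adjacent residues, a threonine and 2 serines, changed to alanine. BTG4 is an adaptor that brings the CCR4-NOT deadenylase to maternal mRNA. Both injected groups still carried the endogenous Btg4 gene, and how much endogenous protein remained beside the injected form was not analysed here. The paper reports that endogenous BTG4 protein seemed lower with either injected form, and leaves this to be clarified. Whether the libraries of a group came from separate mice or cultures is not stated, so the p-values measure the spread between these libraries, which may be technical.

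Superoxide dismutases turn superoxide into hydrogen peroxide and oxygen. SOD1 is the copper and zinc enzyme of the cytosol, and SOD2 is the manganese enzyme of the mitochondrial matrix. Peroxiredoxins and glutathione peroxidases then reduce hydrogen peroxide and organic peroxides, the former largely with electrons from thioredoxin and the latter with electrons from glutathione. A fully grown oocyte is nearly silent in transcription, so its stored mRNAs are translated, given longer or shorter poly(A) tails, or degraded as it matures.

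The libraries were primed with oligo(dT), so an RNA is measured through its poly(A) tail, and the signal for 3′ cleavage and polyadenylation lies near the end of each transcript. For the 6 members on which the comparisons turn most, 30 bases around this signal are shown, 5′ to 3′ on the sense strand, with the signal (AATAAA or ATTAAA) nearest the 3′ end in capitals. The stretch of Prdx3 also holds an AATAAA upstream of it, in lower case. For each gene a coding transcript of GENCODE M21 on GRCm38 was used. A transcript marked as principal in the annotation came first, then the best supported, then the longest. All stretches shown lie in the 3′ UTR within the last exon of this transcript. Their positions are chr4:116700791-116700820 (plus strand, Prdx1), chr8:84974781-84974810 (plus, Prdx2), chr19:60864059-60864088 (minus, Prdx3), chr19:6906714-6906743 (minus, Prdx5), chr16:90226295-90226324 (plus, Sod1) and chr10:80056409-80056438 (plus, Gpx4).
Prdx1: tctgctctgcaaAATAAAtaggacttggcc
Prdx2: acattggatgggAATAAAaactaaagtcaa
Prdx3: ataaaaataaacATTAAAatatttgcgttt
Prdx5: ccatatttctgcAATAAAcagtttaatttg
Sod1: taccctcaaaccATTAAActgtaatctgaa
Gpx4: ctgccttgtgggAATAAAatgtagaaatgt
A signal of this kind, searched on the sense strand, was in the last 50 bases of every member's annotated transcript except that of Prdx6, and in 77.9% of the 11086 tested genes with an annotated transcript of this kind. Cytoplasmic polyadenylation elements, searched as TTTTAT or TTTTAAT, were in the last 100 bases of none of the 10 members and of 19.3% of these genes. The annotated ends may not be those used in the oocyte, and the absence of a match says only that these letters are not in this window. The 3′ UTRs ranged from 60 bases in Prdx4 and 72 in Sod1 to 1566 in Prdx1, 1609 in Prdx6 and 4963 in Sod2, beside a median of 950 bases over the same 11086 genes.

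The values are TPM, which express each RNA as its share of a library per gene length, and they were scaled between libraries by the median of ratios (scaled TPM). The depth of the libraries is not known from TPM. All 12 oocyte markers checked, such as Zp3, Gdf9 and Mos, were at 1 TPM or more in every library, with a summed level of 41135 to 53008 TPM; 1 of them was called higher and 4 lower in MII than in GV. Of 18 cumulus and granulosa cell markers, 7 were listed in the control tables and 8 in the injection tables, 1 to 4 reached 1 TPM, and their sum was 22.7 to 32.0 TPM in every library, of which Cyp19a1 made up 16.7 to 25.9 TPM. Amh, Foxl2, Inhba, Has2 and Ptx3 were not listed. Inha, the inhibin alpha subunit, moved with the groups, at 4.64 and 2.33 TPM in GV, 0 and 0.52 in MII, 1.86 and 1.05 in Btg4wt, and 9.74 and 4.91 in Btg4tm. Col4a1 moved likewise but was not called, at 1.44 and 1.47 TPM in GV, 0.648 and 0.571 in MII, 0.534 and 0.673 in Btg4wt, and 1.30 and 1.17 in Btg4tm. Cyp19a1 went the other way, at 16.7 and 19.2 TPM in GV and 24.8 and 25.9 in MII, and was not called. Star was not called either. The part of these markers in the results was not tested. None of 7 blood cell markers was listed. Btg4 itself stood at 5792 and 6002 scaled TPM in MII, 5178 and 5510 in Btg4wt, and 3725 and 4068 in Btg4tm, so neither injected group stood above the MII group in Btg4 RNA on this scale. Whether the injected RNA carried a poly(A) tail is not stated, and priming with oligo(dT) would miss RNA without one. These values therefore do not measure how much was injected. The paper shows overexpressed BTG4 protein of both forms by immunoblot.

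In GV oocytes Prdx1 was the most abundant member, with 960.3 ± 35.6 scaled TPM (SD, n = 2), followed by Prdx2 with 772 ± 38.4 and Sod1 with 299.9 ± 39.7. Gpx4 (159 ± 4.54), Prdx3 (135 ± 22.8), Prdx5 (79.2 ± 2.45) and Gpx1 (67.4 ± 6.31) came next. The lowest levels were those of Sod2 (13.2 ± 0.594), Prdx6 (10.3 ± 3.01) and Prdx4 (8.21 ± 0.391). Each member lay above the next one in both GV libraries, except that the values of Prdx6 and Prdx4 overlapped. The 3 most abundant RNAs were thus those of cytosolic enzymes, and of the dismutases that of the cytosolic form was well above that of the mitochondrial form.

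**Figure D1:**
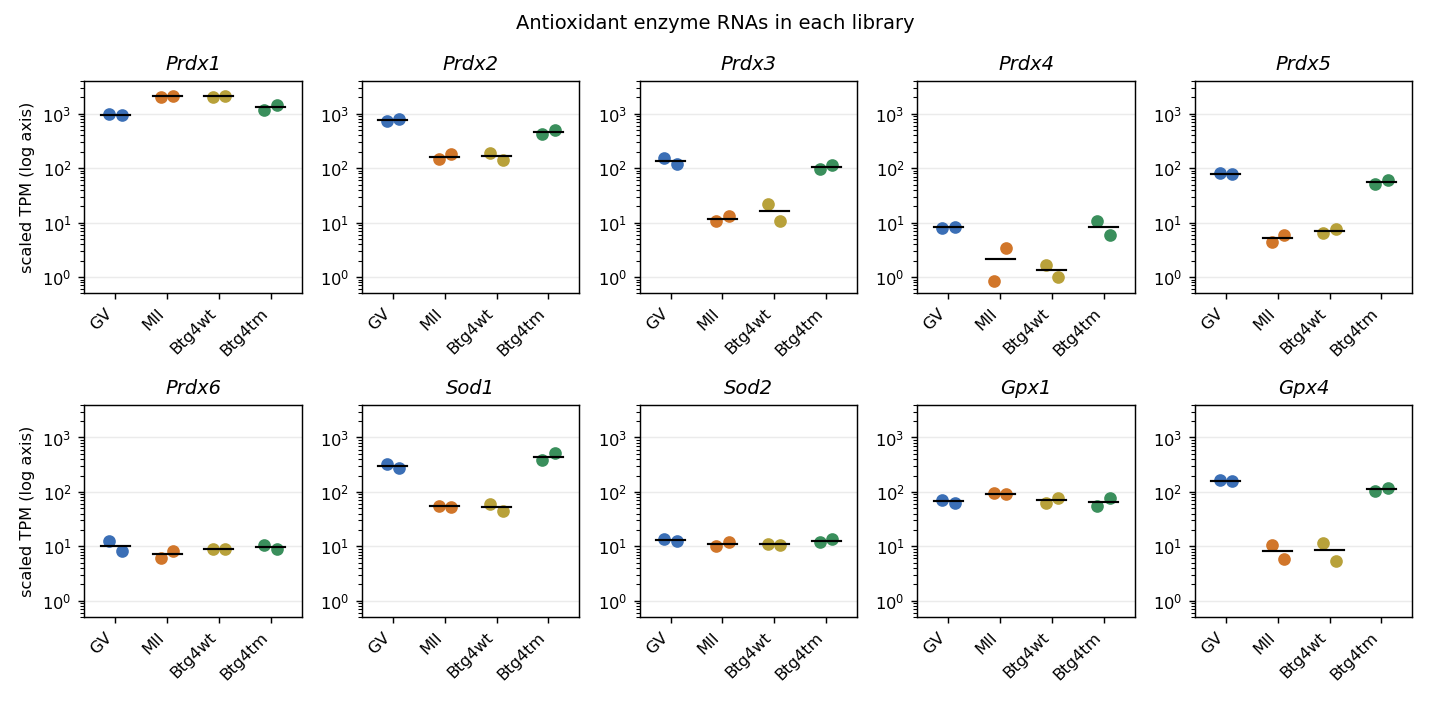
Scaled TPM of the 10 genes on a log axis, with 1 point for each of the 2 libraries in each of the 4 groups. Prdx1 is high in all groups, at 935 to 2127 scaled TPM, while the points of Prdx2, Prdx3, Prdx5, Sod1 and Gpx4 are low in MII and Btg4wt and high in GV and Btg4tm.

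The comparison of MII with GV asks which stored RNAs are lost or gained in maturation. Of the 10 members, 6 were called lower in MII (Gpx4, Prdx5, Prdx3, Sod1, Prdx2 and Prdx4), Prdx1 was called higher, and Prdx6, Sod2 and Gpx1 did not pass the test. Genes were called where the limma p-value, adjusted over all 13968 genes by the Benjamini-Hochberg method, was under 0.05 and the change was over 2-fold on the log2(TPM + 1) scale, which understates the change of low genes. By this rule 24.0% of the genes tested fell in MII and 12.5% rose. The median log2 fold change was -1.97 over the 10 members and -0.00 over all genes. Less RNA per oocyte and fewer oocytes that hold it cannot be told apart in pools of oocytes, nor can loss of an RNA be told from loss of its poly(A) tail. Here and below, these counts hold for the median-of-ratios scaling, and the scalings that change them are given with the plot of 4 scalings.

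Among the glutathione peroxidases, Gpx4 had the largest fall of the members, and Gpx1 did not fall except with scaling to the mitochondrially encoded genes. GPX4 is the selenoenzyme that reduces lipid hydroperoxides within membranes and thereby guards cells against ferroptosis. Gpx4 RNA stood at 162 and 156 scaled TPM in GV and at 10.4 and 5.92 in MII, so that the MII mean was 5.13% of the GV mean. The groups were far apart, with a log2 fold change of -4.17 ± 0.32 (SE) and an adjusted p of 1.5e-05. Gpx1, for the abundant cytosolic selenoenzyme that reduces soluble peroxides, stood at 71.9 and 63.0 in GV and 95.4 and 89.8 in MII. Both MII libraries lay above both GV libraries, but the log2 fold change of 0.45 (95% interval 0.04 to 0.87) missed the threshold with an adjusted p of 0.056 in the limma fit. The order of the 2 genes was turned around: Gpx4 over Gpx1 was 2.26 and 2.47 in the GV libraries and 0.109 and 0.0659 in the MII libraries, a ratio within a library that is the same under any single scale factor per library.

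The dismutases differed in the same manner. Sod1 stood at 328 and 272 scaled TPM in GV and 56.0 and 53.8 in MII. It thus fell 5.36-fold in the fit, a log2 fold change of -2.42 ± 0.19 with a limma adjusted p of 1.7e-05. Sod2, at 13.6 and 12.7 in GV and 10.005 and 11.96 in MII, had a log2 fold change of -0.25 with a 95% interval from -0.61 to 0.12, which leaves out a 2-fold fall under this scaling. Sod1 RNA remained above Sod2 RNA in every library, but its excess shrank from 24.1 and 21.3 times in GV to 5.60 and 4.50 times in MII.

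The peroxiredoxins went in different directions. Prdx1 and Prdx2 encode closely related cytosolic enzymes, and in GV oocytes their RNAs were near each other in level. Prdx1 then rose from 985 and 935 scaled TPM to 2043 and 2127, whereas Prdx2 fell from 745 and 799.6 to 147 and 179. The log2 fold changes were 1.12 ± 0.12 for Prdx1 and -2.24 ± 0.17 for Prdx2, with limma adjusted p-values of 6.7e-05 and 1.3e-05. Prdx1 over Prdx2 went from 1.32 and 1.17 in the GV libraries to 13.8 and 11.9 in the MII libraries. The rise of Prdx1 fell short of 2-fold in TPM as deposited and after quantile normalization, and turned into a fall of 1.10 on the log2 scale when libraries were scaled to the mitochondrially encoded genes.

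Prdx3, for the peroxiredoxin of the mitochondrial matrix, and Prdx5, for a peroxiredoxin of mitochondria, peroxisomes and cytosol, were among the strongest falls. Prdx3 went from 151 and 119 scaled TPM in GV to 10.6 and 13.2 in MII, a log2 fold change of -3.40 ± 0.29 with a limma adjusted p of 2.5e-05. Prdx5 went from 81.0 and 77.5 to 4.43 and 6.02, a log2 fold change of -3.70 ± 0.17 with a limma adjusted p of 1.2e-06. The MII means were 8.80% and 6.59% of the GV means, while RNA for the other mitochondrial enzyme, Sod2, was at 83.4%. Transcripts of nuclear genes for mitochondrial peroxide enzymes thus fell while that of the mitochondrial dismutase was not called, except with scaling to the mitochondrially encoded genes.

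Prdx4, which encodes the peroxiredoxin of the endoplasmic reticulum, was low throughout. It stood at 7.93 and 8.48 scaled TPM in GV and 0.857 and 3.36 in MII. Its log2 fold change of -1.69 ± 0.41 (limma adjusted p of 0.0072) leaned on the MII libraries, since it was -1.07 without MII replicate 1 and -2.30 without MII replicate 2, called in either case. Prdx6, for a bifunctional peroxiredoxin that also has phospholipase activity, stood at 12.5 and 8.21 in GV and 6.17 and 8.21 in MII. The groups met at 8.21, and the log2 fold change of -0.46 had a 95% interval of -0.97 to 0.06 (adjusted p of 0.11). Both MII libraries lay below both GV libraries for 8 of the 10 members, including Prdx6 by less than 0.01 scaled TPM, and for 41.6% of all genes tested.

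**Figure D2:**
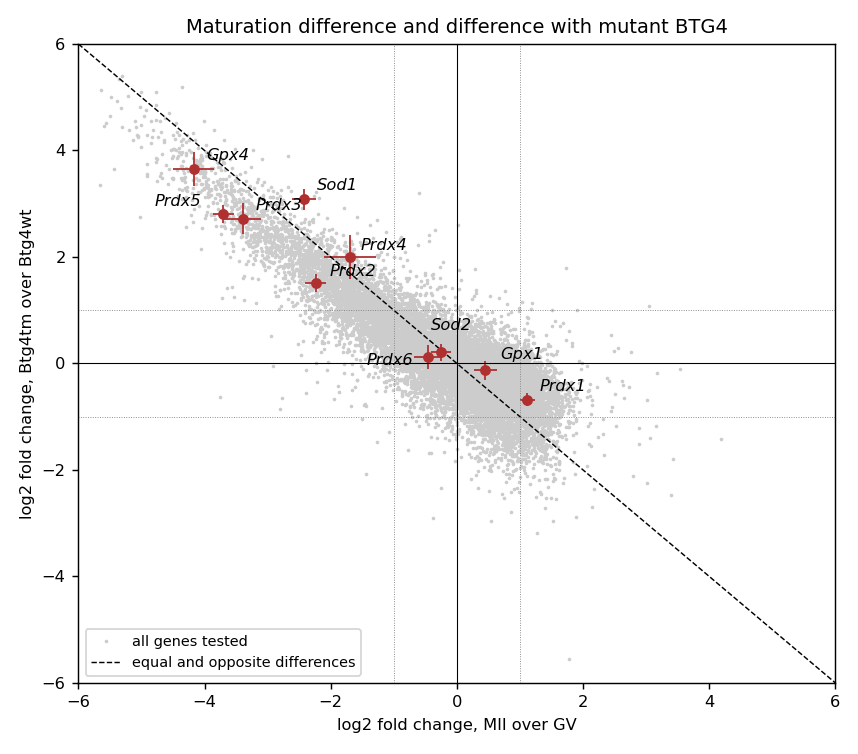
Log2 fold change of each gene from GV to MII (x axis) against that from Btg4wt to Btg4tm (y axis), with standard errors from the limma fit. The 6 genes that fell in MII lie at the upper left, with Gpx4 at -4.17 and 3.65, Prdx1 lies at the lower right at 1.12 and -0.68, and Prdx6, Sod2 and Gpx1 lie near 0 on both axes.

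Summed over the 10 members, the scaled level was 2559 and 2451 TPM in GV and 2384 and 2499 in MII, so on this scale the totals of the groups overlapped. In TPM as deposited they did not, at 2719 and 2714 in GV and 2323 and 2421 in MII. Without Prdx1, the sum was 1573 and 1516 in GV and 341 and 372 in MII. Prdx1 made up 38.3% of the summed members in GV (38.2% and 38.5% in the 2 libraries) and 85.4% in MII (85.1% and 85.7%). In the same step the share of Prdx2 went from 30.9% to 6.68%, that of Sod1 from 11.95% to 2.25%, and that of Gpx4 from 6.35% to 0.336%. Gpx1 moved from the seventh place in GV to the third in MII, above Sod1 in both MII libraries. These shares are taken within a library and are the same under any single scale factor per library, though not under quantile normalization. They are given as a description with no test.

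**Figure D3:**
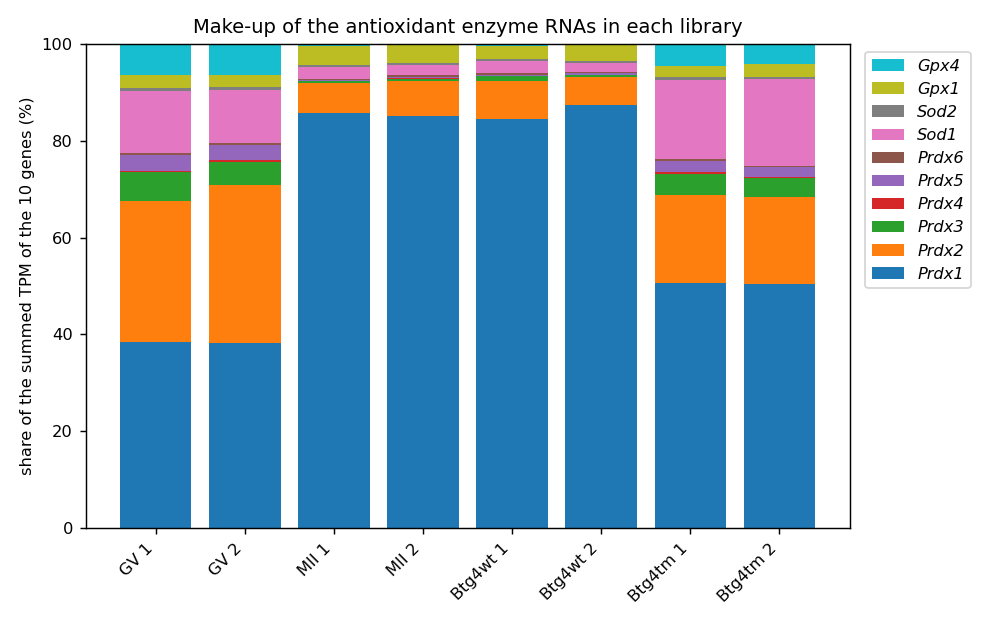
Share of each gene in the summed TPM of the 10 genes, in percent, as a stacked bar for each of the 8 libraries. Prdx1 takes 38.2% to 38.5% in the GV libraries, 84.6% to 87.4% in the MII and Btg4wt libraries, and 50.5% and 50.6% in the Btg4tm libraries.

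The comparison of Btg4tm with Btg4wt asks whether BTG4 without the 3 phosphorylatable residues left maternal RNAs that wild-type BTG4 did not. The 6 members that fell in MII were all called higher in Btg4tm, no member was called lower at 2-fold, and Prdx1, Prdx6, Sod2 and Gpx1 were not called. Over all 13968 genes tested, 3643 were called in either direction, and 2534 of them (18.1% of all) were higher in Btg4tm. The pattern of a fall in MII and a rise in Btg4tm, both called, was found in 6 of 10 members and in 16.8% of all genes. Among the 3351 genes that fell in MII, 70.0% were called higher in Btg4tm, as were 6 of the 6 members that fell. The median log2 fold change was 1.75 over the members and 0.01 over all genes.

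Gpx4 again had the largest difference. It stood at 11.6 and 5.30 scaled TPM in Btg4wt and 105 and 117 in Btg4tm, a log2 fold change of 3.65 ± 0.32 with a limma adjusted p of 5.0e-05. Sod1 stood at 60.5 and 43.7 in Btg4wt and 380.2 and 515 in Btg4tm, a log2 fold change of 3.08 ± 0.19 with a limma adjusted p of 8.6e-06. The Btg4tm libraries were far above the Btg4wt libraries for both genes. For Sod1 they were also above both GV libraries, with a mean of 149% of the GV mean, whereas Gpx4 reached 70.0% of its GV mean. These levels are set across the control and injection tables, hold for the median of ratios and have no test. With scaling to the mitochondrially encoded genes, Sod1 was at -4.61 in MII over GV, 0.39 in Btg4wt over MII and 4.15 in Btg4tm over Btg4wt. Its level against GV was not computed under that scaling.

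Prdx5 and Prdx3 differed by about the same amount. Prdx5 stood at 6.41 and 7.62 scaled TPM in Btg4wt and 51.1 and 59.5 in Btg4tm, with a log2 fold change of 2.81 ± 0.17 and a limma adjusted p of 7.1e-06. Prdx3 stood at 21.8 and 10.5 in Btg4wt and 97.7 and 114 in Btg4tm, with a log2 fold change of 2.72 ± 0.29 and a limma adjusted p of 1.4e-04. Prdx3 is the member whose Btg4wt libraries differed most from each other among those above 10 TPM, and without one or the other library its log2 fold change ranged from 2.22 to 3.20. Neither gene overlapped between the groups.

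Prdx2, the member with the smallest rise among the 6, stood at 191 and 141 scaled TPM in Btg4wt and 423 and 514 in Btg4tm. Its log2 fold change was 1.5 ± 0.17 (limma adjusted p of 1.7e-04). With the median of ratios, its Btg4tm mean was 60.7% of the GV mean, the lowest such share of the 10 members. Prdx4 stood at 1.65 and 0.997 in Btg4wt and 10.9 and 5.997 in Btg4tm, a log2 fold change of 1.99 ± 0.41 (limma adjusted p of 0.0043). Both genes thus stood apart between the groups, Prdx4 at levels where a few TPM make a large fold. Over the fits that left out 1 library, the log2 fold change of Prdx4 was between 1.60 and 2.37.

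Prdx1 went the other way. It stood at 2065 and 2124 scaled TPM in Btg4wt and 1174 and 1452 in Btg4tm, with no overlap. The log2 fold change of -0.68 ± 0.12 had a limma adjusted p of 0.0016 but was under 2-fold, so it was not called. At an adjusted p under 0.05 and any fold, 23.3% of all genes were lower in Btg4tm, and Prdx1 was the only such member. With libraries scaled to the mitochondrially encoded genes the value was 0.41, with an adjusted p of 0.072.

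Gpx1, Sod2 and Prdx6 were not called between the injected groups, except that Sod2 (1.21) and Prdx6 (1.09) were called higher in Btg4tm with scaling to the mitochondrially encoded genes, where Gpx1 was at 0.94 (limma adjusted p of 0.0022). Gpx1 stood at 63.3 and 78.7 scaled TPM in Btg4wt and 54.0 and 76.8 in Btg4tm, with a log2 fold change of -0.13 (95% interval -0.54 to 0.29). Sod2 stood at 10.9 and 10.8 in Btg4wt and 11.8 and 13.7 in Btg4tm, with a log2 fold change of 0.21 (95% interval -0.15 to 0.58). Prdx6 stood at 9.03 and 8.82 in Btg4wt and 9.08 and 10.5 in Btg4tm, with a log2 fold change of 0.11 (95% interval -0.40 to 0.63). Each interval leaves out a 2-fold difference in either direction under this scaling, and the adjusted p-values were 0.59, 0.30 and 0.71 in the same order. Both Btg4tm libraries lay above both Btg4wt libraries in 8 of 10 members, Sod2 and Prdx6 among them, and in 37.6% of all genes tested.

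Of the summed members, Prdx1 was 50.5% in Btg4tm and 86.0% in Btg4wt. Prdx2 was at 18.1% in Btg4tm and 6.80% in Btg4wt, Sod1 at 17.1% and 2.14%, and Gpx4 at 4.31% and 0.346%. The Btg4tm shares of Prdx1, Prdx2 and Gpx4 lay between those of GV and MII, whereas that of Sod1 lay above its 11.95% in GV. The sum without Prdx1 was 376 and 307 scaled TPM in Btg4wt and 1145 and 1426 in Btg4tm. Prdx1 over Prdx2 was 10.8 and 15.1 in the Btg4wt libraries and 2.77 and 2.82 in the Btg4tm libraries, Sod1 over Sod2 was 5.57 and 4.05 against 32.1 and 37.7, and Gpx4 over Gpx1 was 0.183 and 0.0674 against 1.95 and 1.53. In Btg4tm the values of Prdx2 and Sod1 overlapped, as did those of Gpx4 and Prdx3, of Gpx1 and Prdx5, and of Prdx6 and Prdx4, so the order within these pairs is not settled.

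Btg4wt was set against MII to see how injection of wild-type BTG4 left the members. No member and 0% of all genes were called by limma in either direction, with 1655 genes and 0 members at an unadjusted p under 0.05. The log2 fold changes of the members ranged from -0.39 in Gpx1 (95% interval -0.80 to 0.03) to 0.37 in Prdx5 (95% interval -0.02 to 0.76). Prdx1 was at 0.01 (95% interval -0.26 to 0.27), and the widest interval was that of Prdx4, from -1.25 to 0.64. The low levels of Gpx4, Prdx5, Prdx3, Sod1 and Prdx2 in MII were thus found again in Btg4wt, in libraries from another set of tables. Injection, its handling and the tables cannot be told apart here.

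Whether each member differed as much between Btg4tm and Btg4wt as between GV and MII was tested in the same fit as the difference of both differences. No member was called, against 3.69% of all genes, and 4 of the 10 members and 3680 of all genes were at an unadjusted p under 0.05. Prdx5 (difference of -0.89 on the log2 scale, adjusted p of 0.063) and Prdx2 (-0.74, adjusted p of 0.099) had a smaller difference in the injected groups, and Sod1 (0.66, adjusted p of 0.17) had a larger one. Prdx1 was at 0.44 (limma adjusted p of 0.14). For a gene that rose in MII, a positive value is a smaller difference in the injected groups, here 61.0% of that between GV and MII. As shares of the difference between GV and MII on the log2 scale, the differences between Btg4tm and Btg4wt were 67.2% for Prdx2, 76.0% for Prdx5, 80.0% for Prdx3, 87.6% for Gpx4, 117% for Prdx4 and 127% for Sod1. The 95% intervals of the difference ran from -1.04 to 1.64 for Prdx4, from -1.57 to 0.54 for Gpx4, from -1.44 to -0.34 for Prdx5, from -1.29 to -0.19 for Prdx2 and from 0.04 to 1.28 for Sod1, and no member was tested against another. The larger differences of Sod1 and Prdx4 in the injected groups did not hold with scaling to the mitochondrially encoded genes. Under it they were at -0.46 and -0.56 in this test, beside a median of -1.02 over all genes.

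**Figure D4:**
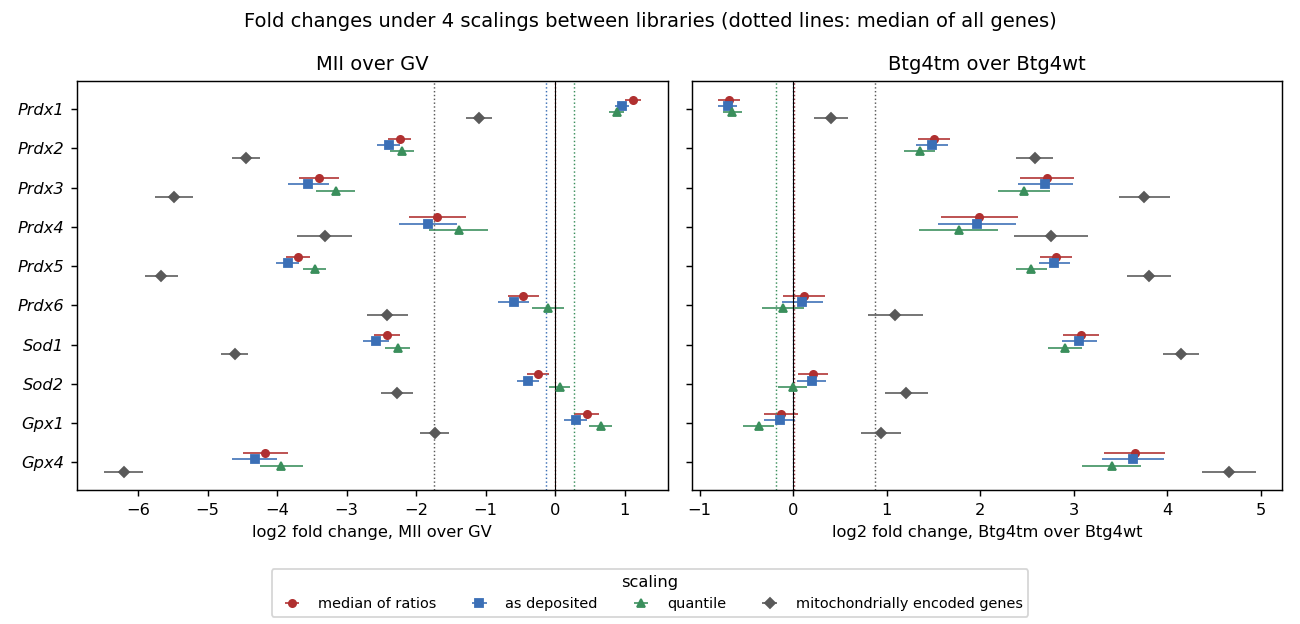
Log2 fold change of each gene with its standard error from limma under 4 scalings between libraries, for MII over GV (left) and Btg4tm over Btg4wt (right), with dotted lines at the median of all genes under each scaling. Prdx2, Prdx3, Prdx4, Prdx5, Sod1 and Gpx4 stay on their side of 0 under all 4, while Prdx1 crosses 0 in both panels with scaling to the mitochondrially encoded genes.

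TPM are shares of a library, so the direction of a gene with a modest change depends on what is held equal. The median log2 fold change of all genes from GV to MII was -0.00 with the median of ratios, -0.13 in TPM as deposited, 0.27 after quantile normalization and -1.74 with scaling to the 19 mitochondrially encoded genes. The 6 members that fell in MII and rose in Btg4tm were called so under all 4. Under the last of them Prdx6, Sod2 and Gpx1 were also lower in MII, at -2.41, -2.28 and -1.73, as was Prdx1, so that all 10 members were called lower, and 8 were called higher in Btg4tm. The median of all genes in Btg4tm over Btg4wt was then 0.88. The share of all genes called under this scaling was not counted, so these counts are no result about the members. Relative to the median gene, Prdx1 was at 0.64 in that scaling, above 77.5% of all genes, against 90.8% with the median of ratios, and Gpx1 was at 0.01.

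Some members share sequence with other annotated genes, and reads that mapped to several places with a low mapping quality had been dropped. Stretches of 50 bases found in other genes covered 80.7% of the Gpx4 transcript (Gpx4-ps2 and AC122253.3), 52.0% of that of Sod1 (Gm8566), 21.6% of that of Prdx1 (Gm21399, Gm7204 and Gm15974), 19.1% of that of Prdx2, 4.40% of that of Prdx6 and 3.21% of that of Sod2. The level of Gpx4 and Sod1 against other genes is therefore uncertain. The copy Gpx4-ps2 was listed, at 26.7 and 21.1 scaled TPM in GV, 1.70 and 0.395 in MII, 1.57 and 1.40 in Btg4wt and 16.3 and 21.8 in Btg4tm. It went the same way as Gpx4, with log2 fold changes of -3.67 in MII over GV and 3.00 in Btg4tm over Btg4wt (limma adjusted p-values of 2.5e-05 and 1.2e-04), as did Prdx2-ps1 with -1.73 and 1.44. Prdx6-ps2 was not called in either comparison. The main gene and its copy may share reads. Exons of Prdx5 overlap those of Trmt112 over 19.1% of their bases and exons of Prdx2 overlap those of Junb and Rnaseh2a over 11.5%, and counting did not use strand. No such stretch or overlap was found for Prdx3, Prdx4 and Gpx1.

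Around the 10 members, 8 lists of other redox genes held 84 genes, of which 60 were tested. In MII, 21 were called lower and 4 higher than in GV, and in Btg4tm 19 were called higher and 3 lower than in Btg4wt, beside 24.0% of all genes lower and 12.5% higher in MII and 18.1% higher in Btg4tm. Between Btg4tm and Btg4wt, 3643 of all 13968 genes were called in either direction, 2534 of them higher. None of the 60 was called between Btg4wt and MII. Shares of all genes called were not counted under the other scalings. After quantile normalization 8 of the 60 were higher and 20 lower in MII. With scaling to the mitochondrially encoded genes 53 were lower and 0 higher in MII, and 37 were higher and 0 lower in Btg4tm, so the rises in MII and falls in Btg4tm given below do not hold under it; Gclc, Gstm5, Mgst3 and Msrb3 were then at -0.49, -0.77, -0.84 and -0.90 in MII, and Slc7a11 at 0.04 in Btg4tm. The median log2 fold change over the 60 was -0.28 in MII over GV and 0.19 in Btg4tm over Btg4wt, nearer to that of all genes than the members' medians were.

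Some of these genes encode partners of the members. Ccs, the chaperone that loads copper into SOD1, fell with a log2 fold change of -2.91 in MII and was higher by 3.24 in Btg4tm, the only called gene of the 3 tested among other peroxide and superoxide enzymes. The level of Ccs was low in MII, at 2.02 and 2.47 scaled TPM, and in Btg4wt, at 1.48 and 0.555. In the thioredoxin system, which recycles peroxiredoxins, 2 of 9 genes fell and none rose in MII, a share near the 24.0% of all genes. Mitochondrial Txn2 was at -1.75 in MII and 1.53 in Btg4tm, and cytosolic Txn1 at -1.24 in MII. In Btg4tm Txn1 was at 0.95 and missed only the 2-fold threshold, with a limma adjusted p of 0.0031. Among 7 genes of the machinery for selenocysteine, the residue in the active site of GPX1 and GPX4, Pstk (-2.67) and the elongation factor Eefsec (-2.14) fell in MII, and both were higher in Btg4tm, at 1.86 and 2.02. The level of Pstk was low in MII, at 1.22 and 1.11 scaled TPM. The other genes tested in these 3 lists were not called in either comparison.

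Glutathione genes were mixed. Of 9 for glutathione synthesis and glutaredoxins, 3 fell, among them Glrx5 (-4.06) and Glrx3 (-2.58), and Gclc, for the catalytic subunit of the rate-limiting enzyme of glutathione synthesis, rose by 1.2 on the log2 scale. The level of Gclc was low, at 2.88 and 1.24 scaled TPM in GV and 5.07 and 6.55 in MII. In Btg4tm, 3 of the 9 were higher, among them Glrx5 (3.89) and Glrx3 (1.97), and Slc7a11, the cystine transporter, was lower (-1.01). Of 15 glutathione transferases, 7 fell, among them Gstt2 (-4.43) and Gsta4 (-3.25), and Gstm5 (1.44) and Mgst3 (1.37) rose. The level of Gstt2 was low in MII, at 0.832 and 2.95 scaled TPM. In Btg4tm, 7 of the 15 were higher, with Gstt2 at 3.14 and Gsta4 at 2.79, and none was lower.

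Of 5 genes for NADPH supply, the pentose phosphate pathway genes Pgls (-2.39) and G6pdx (-1.40) fell in MII, and Pgls was higher in Btg4tm (1.89). The level of Pgls was low, at 5.32 and 7.87 scaled TPM in GV and 0.319 and 0.542 in MII. All 3 methionine sulfoxide reductases tested were called in both comparisons. Msra (-2.16 in MII, 1.60 in Btg4tm) and Msrb1 (-2.08 and 1.96) fell and were higher, and Msrb3 did the reverse, at 1.24 and -1.75. In MII the levels were low for Msra, at 1.40 and 2.67 scaled TPM, and for Msrb1, at 1.43 and 3.75. Of 9 genes listed around NRF2, the transcription factor of the antioxidant response, ferritin heavy chain Fth1 (-3.75) and Hmox2 (-2.44), the constitutive heme oxygenase and not a typical NRF2 target, fell in MII, and both were higher in Btg4tm, at 2.86 and 1.48. The NRF2 targets Hmox1 (0.19) and Nqo1 (0.58) were not called in MII. Hmox1 was near the floor, at 0.669 and 0.532 scaled TPM in GV and 0.601 and 1.08 in MII. Nqo1 missed only the 2-fold threshold, with a limma adjusted p of 0.0045. At an adjusted p under 0.05 and any fold, 3 of the 9 genes were higher and 2 lower in MII. The share of all genes at this threshold was not counted, so this count is no result about the list. At an unadjusted limma p under 0.05 there were 9281 of all 13968 genes in this comparison. Keap1, for the NRF2 inhibitor, was lower in Btg4tm by 1.03 on the log2 scale. Its level was low, at 3.63 and 2.97 scaled TPM in Btg4wt and 1.47 and 0.782 in Btg4tm.

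Over the 8 libraries, the gene whose centred log2 level lay closest to that of Prdx1, among 6874 candidates averaging 10 scaled TPM or more, was Tcl1b3, an oocyte gene of the Tcl1 family, at a root mean square distance of 0.03. The nearest to Prdx2 was Sec14l1 at 0.05, to Sod2 Oma1, a mitochondrial protease gene, at 0.05, and to Gpx1 Ppp1r35 at 0.08. Prdx5 and Gpx4 had Cdk20 and Aven at 0.12 and 0.13, and Prdx6 and Prdx3 had Elovl7 and Chaf1b at 0.12 and 0.16. The least closely matched members were Sod1, with Ppp2r3c at 0.24, and Prdx4, with Rpn2 at 0.26. Among the members themselves the closest pairs were Prdx6 and Sod2 at 0.19, Sod2 and Gpx1 at 0.32, and Prdx3 and Prdx5 at 0.33. These distances are a description over 8 libraries in 4 groups, and they include the spread within groups.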

How the data were processed

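RNA was measured by Smart-seq2 in 8 libraries of 15 oocytes. The authors trimmed reads with Trim Galore 0.6.10, aligned them to GRCm38 with HISAT2 2.2.0, counted them on exons with featureCounts 2.0.6 without regard to strand, and deposited TPM per gene symbol. The gene lengths behind the TPM and the filter on listed genes are not stated. Depth is unknown, so precision is set by the 2 libraries of each group; the labels speak of a larger number of samples per group, and the others were not analysed here.

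The members and lists were chosen with earlier results of these data known. The 15962 genes in both the control tables (17384) and the injection tables (16448) were scaled by the median of ratios (factors 0.948 to 1.11) and transformed to log2(TPM + 1). Those reaching 1 TPM in 2 or more libraries (13968 genes) were fitted in limma 3.58.1 in R 4.3.3 (lmFit, contrasts.fit, eBayes with trend) over all 8 libraries, a procedure tested on simulated data. The study's count model was not used, since TPM are not counts. Calls needed a log2 fold change beyond 1 in either direction and a Benjamini-Hochberg adjusted p under 0.05. All members are named, with at most 2 called genes per direction of largest change from each redox list and comparison, the nearest gene to each member, and listed copies. Hmox1 and Nqo1, which were not called, are named in addition. Alternatives covered scaling, pseudocount, filter, libraries fitted, replicate block, trend, thresholds and leaving out each library. Sequences are from GENCODE M21.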

Additional observations from a re-analysis of the deposited data

How the results depend on the processing

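The scaling between libraries was the choice that moved results. Scaling to the mitochondrially encoded genes turned Prdx1 in MII over GV to -1.10, Gpx1 in MII over GV to -1.73 and Prdx1 in Btg4tm over Btg4wt to 0.41. Under it 10 members were called lower in MII, 0 higher in MII, 8 higher in Btg4tm, and 6 in the test that sets both differences against each other. The median of all genes was then -1.74 in MII over GV, 0.88 in Btg4tm over Btg4wt and -1.02 in that test. In that test Sod1 was then at -0.46 and Prdx4 at -0.56, where the median of ratios gave 0.66 and 0.30. Shares of all genes called were not counted under this scaling. In TPM as deposited 0 members were called higher in MII, since Prdx1 was at 0.96, and 1 was called in that test (Prdx5 at -1.06, adjusted p of 0.035). After quantile normalization 0 were called higher in MII, with Prdx1 at 0.88. Of the 94 counts of called members recomputed under an alternative, the other 88 stayed within 1.5 times the reported count. The fit with only the 4 libraries of a comparison was not run for the test of both differences, which needs all 8. Leaving out any 1 library changed no count of called members beyond that, in fits where the lone library of a group is assumed to vary like the other groups. Without MII replicate 1 and MII replicate 2, Prdx4 in MII over GV was -1.07 and -2.30, and with a pseudocount of 0.1 it was -2.19. The replicate numbers are shared by groups but nothing says that they mark a shared animal or day, and deviations from the group means correlated by -0.02 (GV and MII) and 0.06 (Btg4wt and Btg4tm). With a replicate block, 6 members were called lower and 1 higher in MII and 6 higher in Btg4tm, as without it. Depth could not be assessed, and Prdx4, near 1 TPM in MII and Btg4wt, is the least precise member.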
